A study of Mus musculus with 3 samples.

Results

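The fibrillar collagen chains, *Col1a1*, *Col1a2*, *Col3a1*, *Col5a1*, *Col5a2*, *Col5a3* and *Col11a1*, were followed through healing mouse skin wounds. These 7 genes were picked by name and matched by Ensembl ID among the 32285 genes counted, and each was present as a single entry. Dorsal skin wounds of adult male mice of the inbred strain C57BL/6J were taken 3, 7 and 14 days after injury, dissociated with enzymes as whole tissue with no sort or gate, and profiled by droplet sequencing of single-cell RNA. The labels of the 3 samples name no engineered allele and no agent, and each day was 1 library of cells pooled from several wounds. The methods describe excisional punch wounds for these mice, whereas the series' design text calls the injury incisional. With 1 library per day there was no test and no p-value: a ratio between days compares 2 libraries, and the 95% intervals given (exact Poisson for CPM, exact binomial for ratios and shares) cover counting error only.

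A collagen fibril is built from triple helices of α chains. Type I collagen, the bulk of dermal and scar fibrils, pairs a couple of α1(I) chains (*Col1a1*) with a single α2(I) chain (*Col1a2*), and type III collagen, which is prominent in early granulation tissue, is a trimer of α1(III) chains (*Col3a1*). Type V collagen is a minor component that nucleates fibrils and limits their width. Its common form combines α1(V) (*Col5a1*) and α2(V) (*Col5a2*), while α3(V) (*Col5a3*) joins a rarer form. The α1(XI) chain (*Col11a1*) belongs to type XI collagen, which does the corresponding work in cartilage and can mix with type V chains. Fibroblasts are the main collagen producers of skin.

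In the GENCODE M21 annotation of GRCm38, the build the files were made on (mm10), *Col3a1* lies at chr1:45311538-45349706 on the plus strand and *Col5a2* at chr1:45374321-45503282 on the minus strand, so that these 2 genes face each other with 24.6 kb between their ends. The others are apart: *Col1a1* at chr11:94936224-94953042, *Col1a2* at chr6:4504814-4541544, *Col5a1* at chr2:27886425-28039514 and *Col11a1* at chr3:114030540-114220718, all on the plus strand, and *Col5a3* at chr9:20770050-20815067 on the minus strand. RefSeq (GRCm38.p6) promoter windows, from 250 bases before to 50 bases after the gene start, were at hand for 5 of the 7 genes, *Col1a2*, *Col3a1*, *Col5a1*, *Col5a3* and *Col11a1*. They are shown for 3 genes, *Col1a2*, *Col3a1* and *Col5a3*. From Day 7 to Day 14 in fibroblast-like cells the log2 ratios of these genes were 0.25, 0.06 and -1.11. The small *Col3a1* difference went the other way within some clusters of these cells. The window is chr6:4505368-4505667 (plus strand) for *Col1a2*, chr1:45311288-45311587 (plus strand) for *Col3a1* and chr9:20815018-20815317 (minus strand) for *Col5a3*. Capitals mark every CCAAT or TATAAA on either strand (ATTGG and TTTATA on the opposite strand). These letters do not overlap each other here. RefSeq and GENCODE can place a gene's start differently, as they do for *Col1a2*, and the windows follow RefSeq.
Col1a2: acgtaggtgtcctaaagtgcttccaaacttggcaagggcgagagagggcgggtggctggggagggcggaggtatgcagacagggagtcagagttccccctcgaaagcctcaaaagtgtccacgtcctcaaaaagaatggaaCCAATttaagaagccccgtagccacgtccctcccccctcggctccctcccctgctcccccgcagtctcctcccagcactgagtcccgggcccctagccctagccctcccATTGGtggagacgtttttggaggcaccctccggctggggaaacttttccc
Col3a1: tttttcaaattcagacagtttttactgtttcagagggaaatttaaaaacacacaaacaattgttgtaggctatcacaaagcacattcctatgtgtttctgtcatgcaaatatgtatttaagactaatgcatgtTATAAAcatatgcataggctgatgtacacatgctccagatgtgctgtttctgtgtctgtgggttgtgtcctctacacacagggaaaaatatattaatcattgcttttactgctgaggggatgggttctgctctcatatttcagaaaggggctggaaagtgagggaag
Col5a3: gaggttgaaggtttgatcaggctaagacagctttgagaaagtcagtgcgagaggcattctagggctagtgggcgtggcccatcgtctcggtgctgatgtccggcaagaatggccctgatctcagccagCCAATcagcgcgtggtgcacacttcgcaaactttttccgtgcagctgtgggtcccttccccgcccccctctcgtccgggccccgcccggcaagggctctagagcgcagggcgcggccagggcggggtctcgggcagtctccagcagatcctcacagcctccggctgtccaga

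A CCAAT stood 109 bases before the start of *Col1a2* and 122 bases before that of *Col5a3*, and ATTGG, its opposite-strand form, stood at the start of *Col1a2* itself and 79 bases before that of *Col11a1*. *Col3a1* had no CCAAT and 1 TATAAA, 117 bases before its start. The window of *Col5a1* held neither motif. CCAAT is common, being found on 1 strand or the other in 37.4% of 32851 RefSeq windows of this length, and TATAAA was found in 13.6%. The matches are given as a description of the letters.

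The libraries held 5158, 22924 and 16611 cell barcodes with 38133650, 120940799 and 112713257 UMIs (molecular barcodes that count captured mRNA molecules), and 43, 19 and 111 barcode sequences were shared by Days 3 and 7, Days 3 and 14, and Days 7 and 14. After filters 4360, 19590 and 13510 cells were kept and sorted into classes by standard markers, with clusters made without any collagen gene. Fibroblast-like cells numbered 410, 5816 and 5188. The 8 fibroblast markers served to name this class, so finding all 8 in it on each day is no separate support. UMIs of all 8 were also present in macrophage-like cells on each day, at far lower summed levels given below. The median depth of fibroblast-like cells on Days 3, 7 and 14 was 44069.5, 10357 and 10530.5 UMIs per cell. Those of Day 3 thus stand apart in depth as well as in being few. The medians over all barcodes were 3026.5, 3292 and 5177 UMIs, lowest on Day 3. *Gm42418*, the most abundant single transcript, took 3.48%, 9.26% and 5.31% of fibroblast-like UMIs. It was kept in the totals of UMIs, and its own effect on the ratios between days was not tested. Cluster 10 (58 cells on Day 7, 1479 on Day 14, led by *Igfbp2*, *Tnmd* and *Coch*) held all 8 fibroblast markers too, but its 10 leading genes contained a pericyte-list gene, *Ndufa4l2*, and no fibroblast marker, so it was left unnamed and is described by its number. Levels are in CPM, the usual library-scaled unit, which sets a gene's UMIs against all UMIs of the same summed cells. The 3′ method counts a transcript once whatever its length, but genes differ in how well they are captured, so a ratio between chains is a ratio of captured UMIs and not of proteins.

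Fibrillar chains made up a larger part of wound mRNA in each later library. Over all kept cells the 7 chains summed to 37160, 72639 and 98669 CPM in the Day 3, 7 and 14 libraries, or 3.72%, 7.26% and 9.87% of all UMIs. *Col1a1* ranked second among all genes in each library. In such sums a change in the number of fibroblasts and a change in collagen RNA per cell cannot be told apart. Within fibroblast-like cells the sums were 65759, 111734 and 120854 CPM. The Day 7 level was 1.70 times that of Day 3 (log2 ratio 0.76) and the Day 14 level 1.08 times that of Day 7 (log2 ratio 0.11). As UMIs per cell, the medians on Days 3, 7 and 14 were 2957.5, 1119 and 1191, the opposite order between Days 3 and 7, beside the difference in depth given above.

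**Figure D1:**
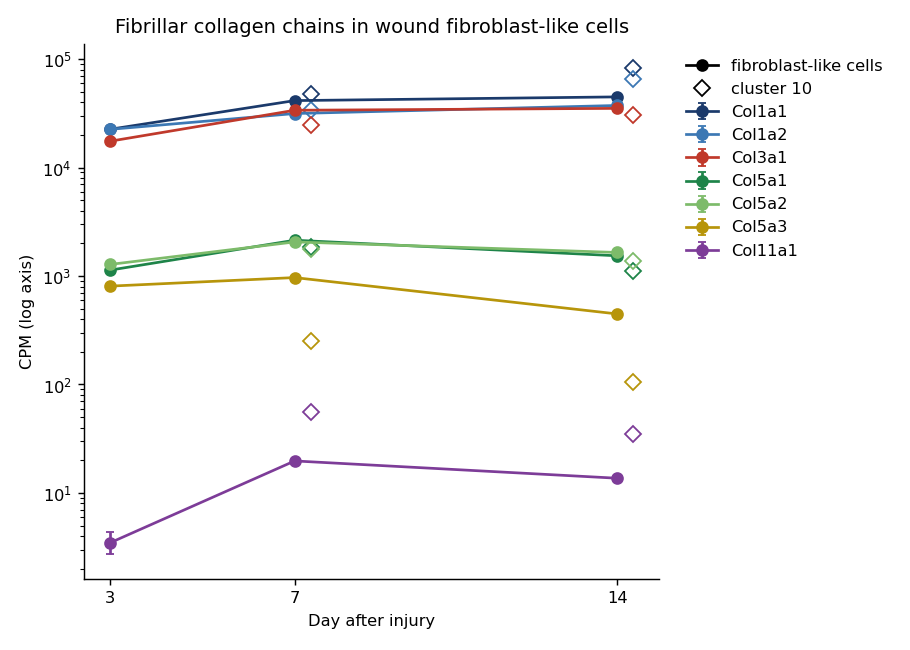
CPM of the 7 chains (log axis) on Days 3, 7 and 14 in fibroblast-like cells (filled circles joined by lines, bars are 95% counting intervals, mostly hidden by the symbols) and in cluster 10 (open diamonds, Days 7 and 14). *Col1a1*, *Col1a2* and *Col3a1* lie at or above 17495 CPM on every day, the type V chains between 447 and 2137 CPM, and *Col11a1* below 20 CPM in fibroblast-like cells.

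The type I and type III chains were the abundant ones. *Col1a1* stood at 22548 CPM in fibroblast-like cells of Day 3, at 41389 CPM in those of Day 7 and at 44781 CPM in those of Day 14. *Col1a2* stood at 22492, 31441 and 37330 CPM and *Col3a1* at 17495, 33718 and 35099 CPM. All 3 were lowest on Day 3. From Day 3 to Day 7 the log2 ratios were 0.88, 0.48 and 0.95 for *Col1a1*, *Col1a2* and *Col3a1*. From Day 7 to Day 14 the same ratios were 0.11, 0.25 and 0.06, and with cluster 10 counted as fibroblast-like they were 0.33, 0.44 and 0.02. The counting interval of each of the 6 abundant chains lay within 1.56% of its value.

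The type V chains behaved otherwise after Day 7. In the same order of days *Col5a1* was at 1134, 2137 and 1536 CPM, and *Col5a2* at 1279, 2062 and 1648 CPM. *Col5a3* was at 807, 967 and 447 CPM, so that its Day 14 level was below that of Day 3. From Day 3 to Day 7 the log2 ratios were 0.91 for *Col5a1*, 0.69 for *Col5a2* and 0.26 for *Col5a3*. From Day 7 to Day 14 they were -0.48 (-0.49 to -0.46), -0.32 (-0.33 to -0.31) and -1.11 (-1.13 to -1.09). All 3 type V chains were thus lower on Day 14 than on Day 7 while the type I chains were 1.13 times higher. *Col11a1* was rare, with 69, 1239 and 772 UMIs, or 3.48 CPM (2.71 to 4.41), 19.7 CPM (18.7 to 20.9) and 13.7 CPM (12.7 to 14.7). The Day 7 level was 5.67 times that of Day 3 (4.44 to 7.33), and that of Day 14 was 1.44 times lower than that of Day 7, at -0.53 (-0.66 to -0.40) in log2. This *Col11a1* value was -0.16 with cluster 10 counted as fibroblast-like and -0.10 with classes set from each cell's own markers.

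As background for these differences, 2-fold was taken as the limit for genes that reached 50 CPM in either library and had 10 or more UMIs in both. *Col11a1* did not reach 50 CPM, so 6 of the 7 chains could be counted. From Day 3 to Day 7 none of the 6 passed 2-fold, whereas 180 of 3219 genes (5.59%) were at least 2-fold higher and 356 (11.1%) at least 2-fold lower. The median log2 ratio of the 6 chains was 0.78 and that of all genes counted was -0.27. From Day 7 to Day 14 *Col5a3* was the only chain past 2-fold, at 2.16 times lower, among 100 of 2820 genes (3.55%) that were lower and 93 (3.30%) that were higher. The median log2 ratios were then -0.13 for the 6 chains and -0.05 for all genes counted. The first of these counts depended on the scaling. Scaled to the median gene, which adds 0.27 to each log2 ratio, *Col3a1*, *Col1a1* and *Col5a1* lay past 2-fold on Day 7 against Day 3, at 1.21, 1.14 and 1.18, beside 283 genes higher and 196 lower, and the same 3 chains passed when the 50 most abundant genes were left out of the total.

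Ratios between chains within 1 library do not depend on how the library is scaled. In fibroblast-like cells the *Col1a1* to *Col3a1* ratio was 1.29 (1.28 to 1.29), 1.23 (1.23 to 1.23) and 1.28 (1.27 to 1.28) on Days 3, 7 and 14. The *Col1a1* to *Col1a2* ratio was less even, at 1.00 (1.00 to 1.01), 1.32 (1.31 to 1.32) and 1.20 (1.20 to 1.20). The *Col1a2* to *Col3a1* ratio was 1.29, 0.932 and 1.06. The type V to type I ratio, UMIs of *Col5a1*, *Col5a2* and *Col5a3* over those of *Col1a1* and *Col1a2*, was 0.0715 (0.0709 to 0.0721) on Day 3 and 0.0709 (0.0707 to 0.0712) on Day 7, and 0.0442 (0.0440 to 0.0444) on Day 14.

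Among the type V chains, the *Col5a1* to *Col5a2* ratio stayed near 1, at 0.886, 1.04 and 0.932 on Days 3, 7 and 14. The *Col5a3* to *Col5a1* ratio was lower on each later day, with 0.712 (0.697 to 0.726), 0.453 (0.448 to 0.457) and 0.291 (0.287 to 0.295). Neighbouring *Col5a2* and *Col3a1* did not keep a fixed ratio: it was 0.0731, 0.0611 and 0.0470. *Col11a1* UMIs per *Col5a1* UMI were 0.00307 (0.00239 to 0.00389), 0.00924 (0.00873 to 0.00977) and 0.00891 (0.00829 to 0.00956).

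**Figure D2:**
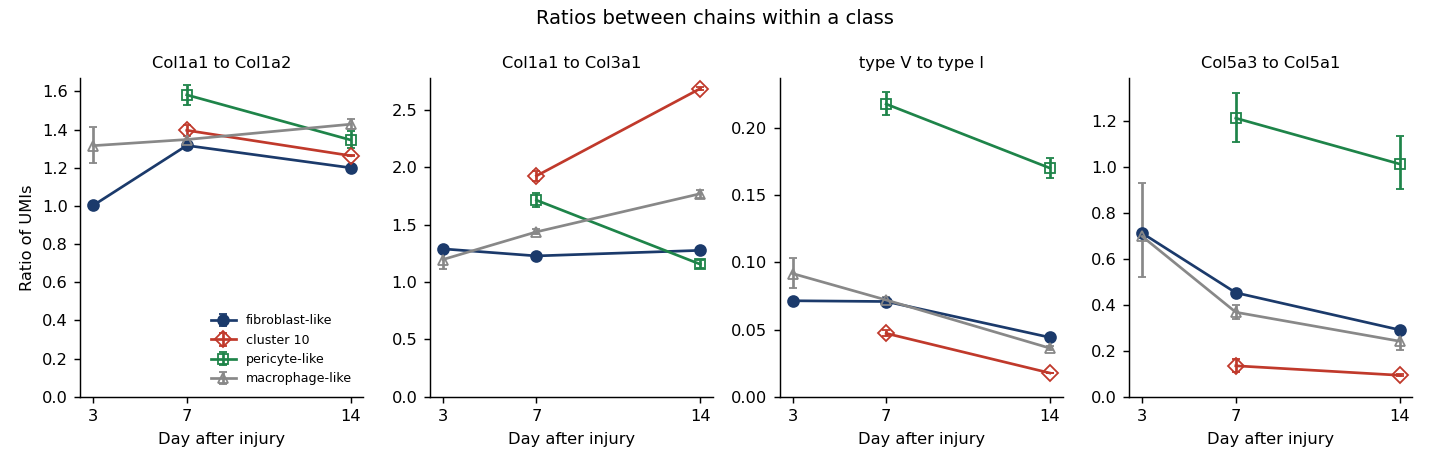
Ratios of UMIs (vertical axes, from 0) between chains on Days 3, 7 and 14 in fibroblast-like cells, cluster 10, pericyte-like and macrophage-like cells, with 95% counting intervals as bars. The *Col1a1* to *Col3a1* ratio stays between 1.23 and 1.29 in fibroblast-like cells and reaches 2.69 in cluster 10. Among the classes shown, pericyte-like cells have the highest *Col5a3* to *Col5a1* ratios, 1.21 and 1.01.

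Fibroblast-like cells did not fall into the same mix of clusters on each day. They came from 6 clusters, of which cluster 11, led by *Saa3*, *Prg4* and *Cxcl5*, and cluster 17, led by the cell-division genes *Ube2c* and *Top2a*, held 222 and 159 of the 410 cells on Day 3. Cluster 4 (led by *H19*, *Tnn* and *Tnc*, 2377 cells) was the largest on Day 7 and cluster 3 (led by *Cilp*, *Thbs4* and *Mgp*, 2433 cells) on Day 14. Clusters 6 (*Mgp*, *Gdf10*) and 8 (*Akr1c18*, *Pla1a*, *Pi16*) were present on Days 7 and 14. A cluster mostly of 1 library may be that library and not a cell state. In the 12 cluster and library combinations with at least 100 cells, *Col1a1* ranged from 20342 CPM (cluster 17, Day 3) to 53008 CPM (cluster 11, Day 7), a 2.61-fold range, and *Col1a2*, *Col3a1*, *Col5a1* and *Col5a2* had ranges of 2.13-, 2.82-, 2.20- and 2.09-fold. *Col5a3* ranged 5.04-fold, from 277 CPM (cluster 8, Day 14) to 1399 CPM (cluster 17, Day 7). *Col11a1* ranged 56.0-fold, from 0.554 CPM (cluster 8, Day 7) to 31.0 CPM (cluster 4, Day 7).

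*Col5a3* and *Col11a1* were uneven between clusters. *Col5a3* was above 1000 CPM in 2 combinations alone, cluster 17 and cluster 4 on Day 7, at 1399 and 1344 CPM, and these also had the highest *Acta2* (smooth muscle actin, a myofibroblast gene), at 856 and 411 CPM. *Col11a1* was at 25.7 to 31.0 CPM in clusters 3, 4, 6 and 17 on Day 7 and at 15.4 and 15.6 CPM in clusters 6 and 3 on Day 14. In clusters 8 and 11 it stayed at or below 3.05 CPM on every day, although *Col5a1* there was at 1151 to 2014 CPM. Cluster 8 had the lowest *Col1a1* to *Col3a1* ratio, 0.972 on Day 7 and 1.09 on Day 14, against 1.23 to 1.40 in the other 10 combinations. On Day 7 it was the single combination of the 12 in which *Col3a1* outnumbered *Col1a1*.

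**Figure D3:**
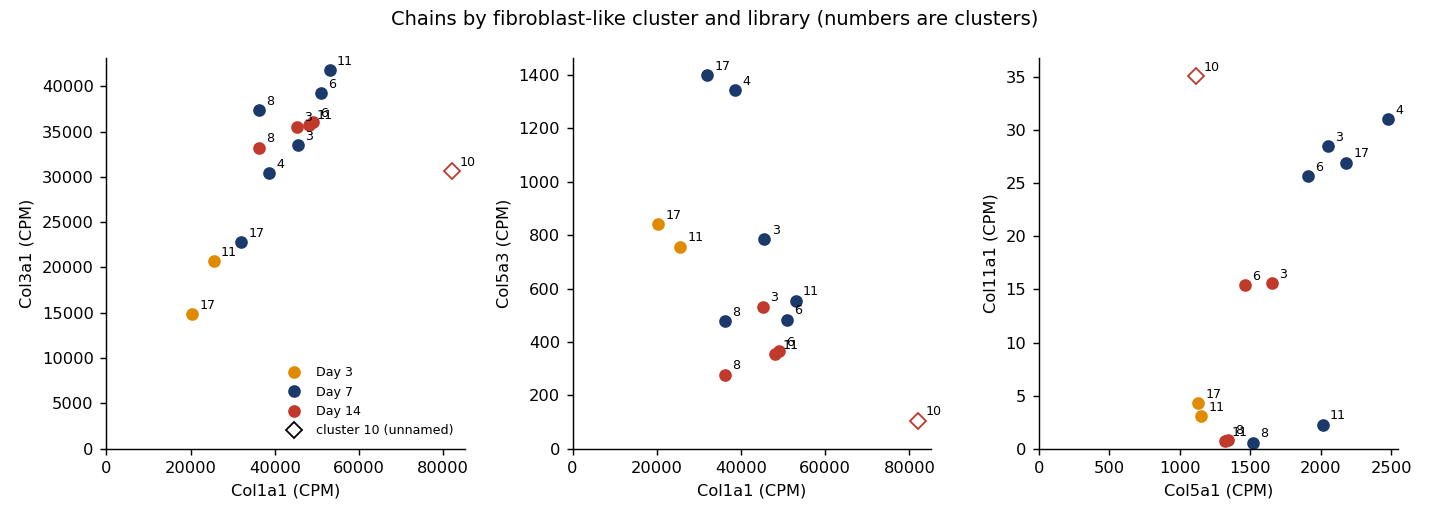
CPM of pairs of chains in each fibroblast-like cluster and library with at least 100 cells (filled circles, coloured by day and labelled with the cluster number) and in cluster 10 on Day 14 (open diamond). *Col1a1* and *Col3a1* lie along a line from which cluster 10 departs, *Col5a3* is highest in clusters 17 and 4 of Day 7, and *Col11a1* is near 0 in clusters 8 and 11.

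Where the same cluster was present in 2 libraries, the chains could be compared without a change in the mix of clusters. From Day 7 to Day 14 (clusters 3, 6, 8 and 11) all 3 type V chains were lower in each of the 4 clusters, with log2 ratios of -0.61 to -0.18 for *Col5a1*, -0.39 to -0.24 for *Col5a2* and -0.78 to -0.41 for *Col5a3*. These 4 comparisons use the same 2 libraries and are not separate evidence. Cluster 3 had only 119 cells on Day 7, and cluster 11 had 145 on Day 14. *Col1a1* was not higher in any of the 4, in contrast to 0.11 over the class: its log2 ratios were -0.05 and -0.14 in clusters 6 and 11, and -0.01 (-0.02 to 0.00) and -0.00 (-0.01 to 0.01) in clusters 3 and 8. *Col1a2* was higher on Day 14 in clusters 3 and 8, at 0.16 and 0.14, and was at 0.01 (0.00 to 0.02) in cluster 11 and -0.01 in cluster 6. *Col3a1* was at 0.09 in cluster 3 and between -0.23 and -0.12 in clusters 6, 8 and 11. The type V to type I ratio was lower on Day 14 in all 4, by log2 ratios of -0.45 to -0.30. The *Col5a3* to *Col5a1* ratio was 0.382 on Day 7 and 0.323 on Day 14 in cluster 3, and 0.314 and 0.207 in cluster 8. In cluster 6 it was 0.253 and 0.249, and in cluster 11 it was 0.276 and 0.269.

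From Day 3 to Day 7 only clusters 11 and 17 could be compared. *Col1a1*, *Col1a2* and *Col3a1* were higher on Day 7 in both, at log2 ratios of 1.06, 0.74 and 1.01 in cluster 11 and 0.65, 0.18 and 0.62 in cluster 17. *Col5a3* went in opposite directions, at -0.45 (-0.50 to -0.40) in cluster 11 and 0.73 (0.69 to 0.78) in cluster 17. *Col11a1* was at 4.29 CPM on Day 3 and 26.9 CPM on Day 7 in cluster 17, and at 3.05 and 2.27 CPM in cluster 11.

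**Figure D4:**
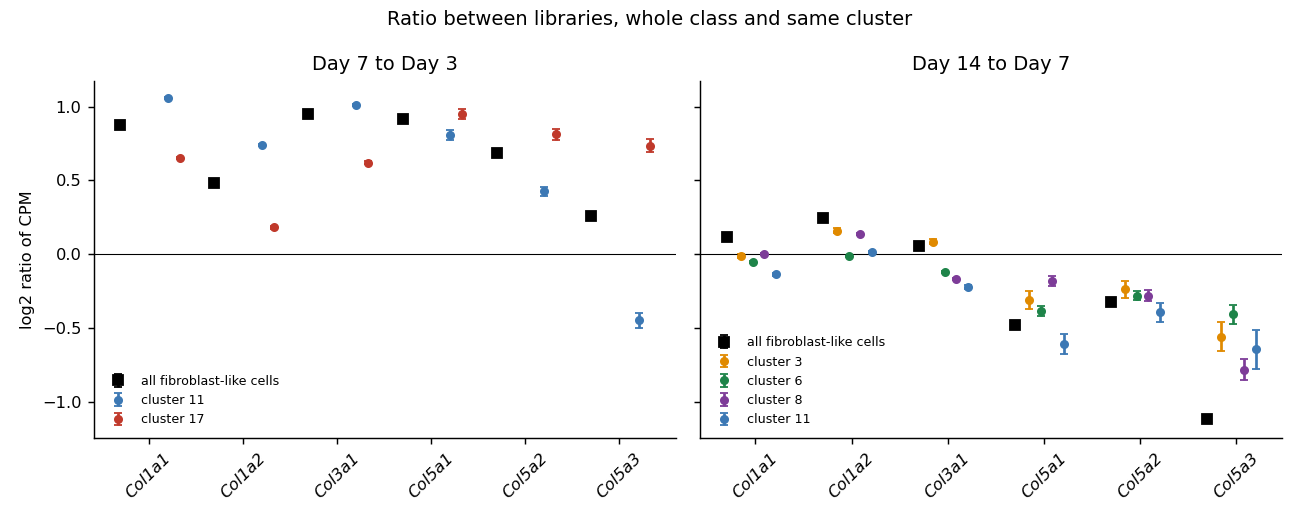
Log2 ratio of CPM between libraries for the 6 abundant chains, over all fibroblast-like cells (black squares) and within the same cluster (coloured circles), with 95% counting intervals. The left panel compares Day 7 with Day 3 and the right panel Day 14 with Day 7. In the right panel every circle of *Col5a1*, *Col5a2* and *Col5a3* lies below 0 and no circle of *Col1a1* lies above 0.

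On Day 14 cluster 10 had the highest chain content of any class or unnamed cluster with at least 50 cells. The 7 chains made up 18.0% of its UMIs, against 12.1% in fibroblast-like cells, and *Col1a1* alone stood at 82158 CPM. *Col1a2* was at 65050 CPM, 174% of the fibroblast-like level, while *Col3a1*, at 30593 CPM, was at 87.2% of it. The *Col1a1* to *Col3a1* ratio was therefore 2.69 (2.68 to 2.70), and in the 58 cells of Day 7 it was 1.92 (1.88 to 1.97). *Col5a1* and *Col5a2* were at 72.7% and 84.0% of the fibroblast-like level and *Col5a3*, at 105 CPM, at 23.4%. *Col11a1* was at 35.1 CPM (32.0 to 38.3), 256% of the fibroblast-like level. The type V to type I ratio of cluster 10 on Day 14, 0.0177 (0.0175 to 0.0179), was below that of all 12 fibroblast-like combinations, whose lowest was 0.0346. In its 58 cells of Day 7 the ratio was 0.0472 (0.0449 to 0.0496), within the range of those combinations. The low-depth cluster 14 also held all 8 fibroblast markers, but haemoglobin genes (*Hbb-bs*, *Hba-a1*) and mast cell genes (*Mcpt4*, *Cma1*) were among its leading genes. It was left unnamed. On Day 14 it had *Col1a1* at 67691 CPM and a *Col1a1* to *Col3a1* ratio of 2.13. Its type V to type I ratio was 0.0315. Its type V chains did not follow those of cluster 10, with *Col5a1*, *Col5a2* and *Col5a3* at 117%, 77.5% and 99.5% of the fibroblast-like level.

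Cluster 10 on Day 14 was also compared with fibroblast-like cells of the same day by the 2-fold count. *Col5a3* was the only 1 of the 6 chains counted that passed 2-fold in cluster 10, and it was lower. So were 212 of 2638 genes (8.04%), while 93 (3.53%) were higher. The same count was not made for cluster 14. The class value for Day 14 depends on cluster 10. With cluster 10 counted as fibroblast-like, *Col1a1* was at 52162 CPM, the *Col1a1* to *Col3a1* ratio at 1.52 and the type V to type I ratio at 0.0361. Pericyte markers were summed to 508 CPM in cluster 10 and 91.8 CPM in fibroblast-like cells on Day 14, against 9209 CPM in pericyte-like cells, and 6 of the 7 had a UMI. Their part in the difference was not tested.

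Individual cells showed the same contrast. In fibroblast-like cells the chains took a median of 6.67% of a cell's UMIs on Day 3 (quartiles 4.73% and 8.23%), 10.8% on Day 7 (8.48% and 13.4%) and 11.5% on Day 14 (8.48% and 14.6%). Cells of cluster 10 on Day 14 had a median of 14.9% with quartiles of 6.90% and 23.6%, a wider spread than in fibroblast-like cells of that day. In cells with at least 50 UMIs of the pair, *Col1a1* made up a median of 56.4%, 55.1% and 55.5% of *Col1a1* plus *Col3a1* UMIs on Days 3, 7 and 14, and 71.8% in cluster 10 on Day 14. The SD across fibroblast-like cells was 8.22, 8.13 and 7.26 percentage points, against 1.69, 2.12 and 2.20 from counting alone. *Col1a1* was the more abundant of the pair in 82.0%, 74.3% and 79.2% of the cells.

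After thinning each fibroblast-like cell to 2000 UMIs, *Col1a1*, *Col1a2* and *Col3a1* were found in at least 99.98% of cells on every day. *Col5a1* was found in 85.1%, 96.0% and 91.9% of cells on Days 3, 7 and 14, *Col5a2* in 86.9%, 95.3% and 92.5%, and *Col5a3* in 67.5%, 69.8% and 50.1%. *Col11a1* was found in 0.504%, 3.09% and 1.99%. In macrophage-like cells, given for comparison, *Col5a3* was found in 1.46%, 5.55% and 2.68% after the same thinning, and *Col11a1* in 0%, 0.221% and 0.233%. These shares leave out cells under 2000 UMIs. They were 13, 59 and 71 fibroblast-like cells and 584, 3204 and 702 macrophage-like cells. Unthinned, *Col5a3* had a UMI in 96.6%, 94.0% and 86.9% of fibroblast-like cells and in 2.91%, 8.26% and 4.94% of macrophage-like cells, whose median depths were 4054.5, 2536 and 3543 UMIs. *Col11a1* and *Col5a3*, both highest in cluster 4 or 17 of Day 7, were not found together more often: *Col11a1* was found in 2.84% (2.34 to 3.40%) of thinned Day 7 cells with a *Col5a3* UMI and in 3.69% (2.85 to 4.68%) of those without, with overlapping intervals.

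Cells rich in *Acta2* differed in chain make-up on Day 7. The 182 cells with at least 5 *Acta2* UMIs after thinning are the upper end of a range and not a type. They had 28981 CPM of *Col1a1* against 43307 in the 4800 cells with no *Acta2* UMI, and 15865 against 36253 CPM of *Col3a1*, which set their *Col1a1* to *Col3a1* ratio at 1.83 against 1.19. *Col1a2* was at 21386 against 33009 CPM. *Col5a2* was about level, at 2047 (1990 to 2106) against 2034 CPM (2021 to 2046), while *Col5a1* was at 2750 against 2058 CPM, *Col5a3* at 1091 against 899 CPM and *Col11a1* at 87.4 (75.9 to 100) against 12.5 CPM (11.6 to 13.6). Days 3 and 14 had 1 and 3 such cells, too few for a level.

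Almost all chain UMIs were in fibroblast-like cells early on. They held 98.9%, 96.3% and 70.7% of the UMIs of the 7 chains on Days 3, 7 and 14, and on Day 14 cluster 10 held a further 26.0%. The low-depth cluster 14, with all 8 fibroblast markers at a median of 914 to 1165 UMIs per cell, held 0.303%, 0.710% and 1.10%. Macrophage-like cells, the most numerous class on Days 3 and 7, held 0.380%, 1.37% and 0.661%. In macrophage-like cells the 6 abundant chains stood at 0.50% to 0.86% of their fibroblast-like level on Day 3, which became 2.97% to 4.06% in the next library and 3.36% to 4.84% in the last, a narrow range over the chains. Neutrophil-like cells on Day 7, with 711 UMIs per cell, had 8.15% to 11.9%. Endothelial cell-like cells had 4.10% to 6.01% on Day 7 and 10.1% to 13.6% on Day 14. Fibroblast markers in macrophage-like cells were summed to 51.0, 429 and 562 CPM, against 8674, 13762 and 17924 CPM in fibroblast-like cells. No correction was made for free RNA, and its part in these levels was not tested.

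The pericyte-like class, cells that wrap small vessels, departed from this even pattern. *Col1a1* was at 7569 CPM on Day 7 and 4589 on Day 14, which is 18.3% and 10.2% of the fibroblast-like level, and *Col3a1* at 13.1% and 11.3%. *Col5a1* was at 37.5% and 23.4%, *Col5a2* at 44.5% and 38.8%, and *Col5a3*, with 973 CPM (917 to 1031) and 364 CPM (336 to 393), at 101% and 81.4%. *Col5a3* was the chain nearest to its fibroblast-like level on both days. The *Col5a3* to *Col5a1* ratio was 1.21 (1.11 to 1.32) and 1.01 (0.906 to 1.13), against 0.453 and 0.291 in fibroblast-like cells, and the type V to type I ratio was 0.218 (0.210 to 0.227) and 0.170 (0.163 to 0.178). On each day the other 5 of the 6 chains counted were at least 2-fold lower than in fibroblast-like cells, where 10.4% of 3437 genes on Day 7 and 15% of 3352 on Day 14 were that much lower, and 17.5% and 24.5% higher. Fibroblast markers were summed to 1727 and 1648 CPM in pericyte-like cells, and their part in these levels was not tested.

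*Col11a1* had its own pattern across classes. The highest level was in cluster 25 on Day 14 (139 cells, with *Dct* and *Pmel* among its leading genes, all 6 Schwann cell and all 4 melanocyte markers, and left unnamed for that reason), at 529 CPM (472 to 592), which is 3870.3% of the fibroblast-like level. In the same cells *Col1a1* was at 19.2%, *Col5a1* at 38.7%, *Col5a2* at 87.6% and *Col5a3* at 136% of the fibroblast-like level. Their *Col5a3* to *Col5a1* ratio, 1.03 (0.883 to 1.19), and type V to type I ratio, 0.179 (0.169 to 0.189), were near those of pericyte-like cells on that day. Mesenchymal-like cells (728 cells on Day 14, with *Bmp4*, *Wif1* and *Prlr* among the markers) came next at 91.9 CPM (79.6 to 106), or 672%, while their *Col1a1* was at 6.98% and their *Col5a3* at 5.06%. The other 6 chains were at least 2-fold lower in mesenchymal-like than in fibroblast-like cells, as were 16.2% of 3596 genes, while 30.8% were higher. *Col11a1*, at 13.7 CPM in fibroblast-like cells, met the 50 CPM limit only through its mesenchymal-like level. It could therefore be counted only as higher, and that call is no separate support. Fibroblast-like cells nevertheless held 42.6% of all *Col11a1* UMIs on Day 14, cluster 10 held 26.9%, cluster 25 held 17.2% and mesenchymal-like cells 11%. On Day 3 all 69 UMIs were in fibroblast-like cells. After thinning, *Col11a1* was found in 14.3% of mesenchymal-like cells on Day 14 and in 0.233% of macrophage-like cells, and without thinning in 15.7% and 0.396%, at median depths of 2354 and 3543 UMIs.

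**Figure D5:**
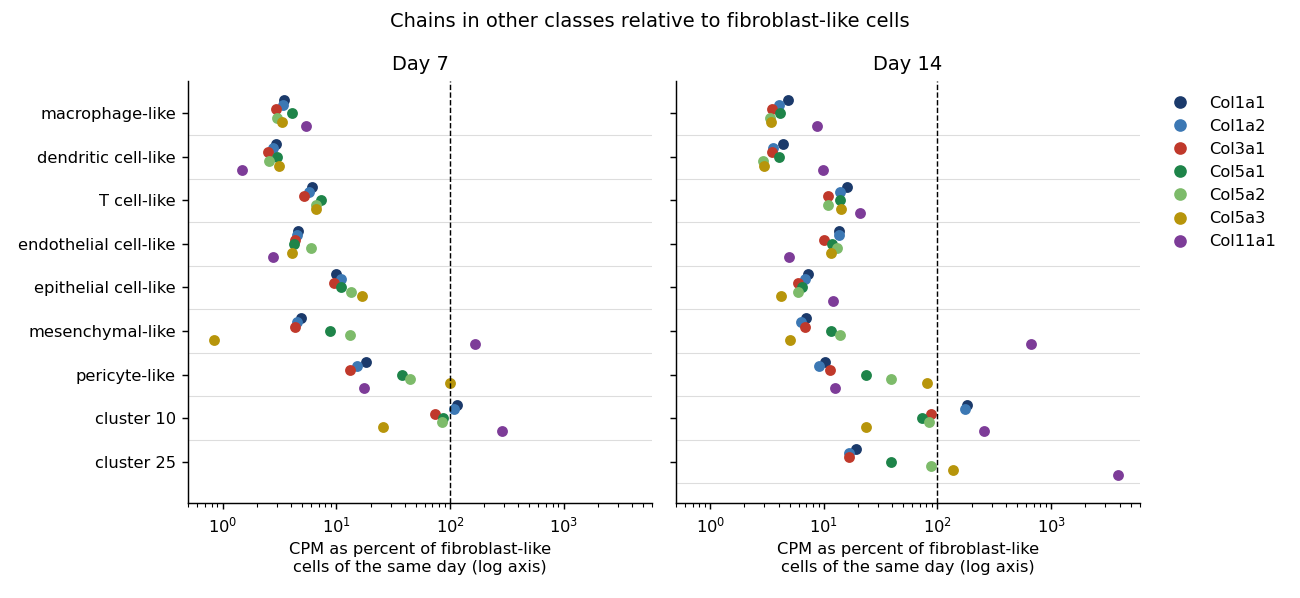
Level of each chain in other classes as a percentage of its CPM in fibroblast-like cells of the same day (log axis, dashed line at 100%), for Days 7 and 14, with 1 point per chain and chains at 0 left out. The 6 abundant chains of macrophage-like cells bunch together between 2.97% and 4.84%, whereas *Col5a3* lies at 101% and 81.4% in pericyte-like cells and *Col11a1* at 3870.3% in cluster 25.

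The gene lists that follow are given for fibroblast-like cells alone. Of 14 genes of procollagen folding and export, all counted, 6 were at least 2-fold lower on Day 7 than on Day 3 and none was 2-fold higher. Among all genes counted 11.1% were lower and 5.59% higher. The median log2 ratio of the 14 was -0.89, against -0.27 for all genes. The prolyl hydroxylase subunit *P4ha1* was at 739 CPM on Day 3 and 251 on Day 7, the lysyl hydroxylase *Plod2* at 954 and 330 CPM, the prolyl isomerase *Fkbp10* at 518 and 196 CPM and the secretory transcription factor *Creb3l1* at 681 and 293 CPM. From Day 7 to Day 14, 3 of the 14 were at least 2-fold lower, *Plod2* at 97.6, *Fkbp10* at 89.4 and *P4ha3* at 26.3 CPM, and none was 2-fold higher, beside 3.55% lower and 3.30% higher among all genes. Scaled to the median gene, 3 of the 14, *Plod2*, *Fkbp10* and *P4ha1*, stayed past 2-fold on Day 7. *Serpinh1*, the collagen chaperone, was at 5113, 3251 and 2482 CPM on the 3 days, and the prolyl isomerase *Ppib* was at 503, 748 and 946 CPM, higher in each later library.

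Of 5 cross-linking genes 4 could be counted in fibroblast-like cells. On Day 7, 3 were at least 2-fold lower than on Day 3 (11.1% of all genes were). They were the lysyl oxidase *Lox* at 2285 and 660 CPM, *Loxl2* at 1417 and 513 CPM and *Loxl3* at 178 and 74.8 CPM. *Loxl3* alone of the 4 was 2-fold lower from Day 7 to Day 14 (3.55% of all genes were), at 27.4 CPM. Scaled to the median gene, *Lox* and *Loxl2* stayed past 2-fold on Day 7 and *Loxl3* did not. Of 6 genes of propeptide removal 4 were counted in each comparison, none passed 2-fold from Day 3 to Day 7, and from Day 7 to Day 14 *Pcolce2*, an enhancer of procollagen C-proteinase, was the 1 gene of the 4 that was 2-fold higher (3.30% of all genes were), at 51.4 and 149 CPM. *Adamts2*, which removes the N-propeptide, was at 216, 416 and 433 CPM on the 3 days, and it and *Pcolce* passed 2-fold higher on Day 7 when scaled to the median gene.

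Of 9 genes of fibril surface proteins 8 were counted in fibroblast-like cells. On Day 7, 3 were at least 2-fold higher than on Day 3 (5.59% of all genes were) and none 2-fold lower. They were lumican (*Lum*), a proteoglycan that limits fibril growth, at 175 and 1214 CPM, *Col14a1* at 301 and 1230 CPM and tenascin X (*Tnxb*) at 121 and 409 CPM. The other 5, *Dcn*, *Col12a1*, *Sparc*, *Thbs2* and *Fn1*, had log2 ratios of 0.45 to 0.99. *Lum* and *Dcn* also served to name the class. Scaled to the median gene, *Fn1* and *Thbs2* were past 2-fold as well. Between Days 7 and 14, 2 of 8 were at least 2-fold lower (3.55% of all genes were) and none 2-fold higher, *Col12a1* at 590 and 162 CPM and *Thbs2* at 644 and 274 CPM. Of the other collagens, 5 of 8 counted were at least 2-fold higher from Day 3 to Day 7 (5.59% of all genes were), with the type VI chains *Col6a1*, *Col6a3* and *Col6a2* at log2 ratios of 2.05, 1.86 and 1.75, and 4 of 9 from Day 7 to Day 14 (3.30% of all genes were), with *Col8a1* at 1.72, *Col15a1* at 1.60 and the basement membrane chains *Col4a2* and *Col4a1* at 1.18 and 1.13. None was 2-fold lower, but *Col4a1* had a log2 ratio of -0.67 in the first interval, and *Col6a3* and *Col16a1* had -0.15 and -0.65 in the second. Of the remaining fibrillar chains, *Col27a1* was at 126, 94.2 and 36.5 CPM and *Col24a1* at 16.4, 14.4 and 1.70 CPM. *Col2a1* and *Col11a2* had at most 3 and 44 UMIs in the fibroblast-like cells of any library.

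Across the 12 cluster and library combinations the chains fell into sets. Pearson's r of log2(CPM + 1), which describes these units and carries no test since they share libraries and scaling, was 0.94 for *Col1a1* with *Col3a1*, 0.93 with *Col1a2*, and 0.93 for *Col5a1* with *Col5a2*. Between the sets it was lower, 0.50 for *Col1a1* with *Col5a1* and 0.39 for *Col3a1* with its neighbour *Col5a2*. *Col5a3* had values of -0.43, -0.58 and -0.54 with *Col1a1*, *Col1a2* and *Col3a1*, and of 0.50 and 0.52 with *Col5a1* and *Col5a2*. *Col11a1* was closest to *Col5a2*, at 0.73. In single cells thinned to 2000 UMIs, *Col1a1* with *Col1a2* had 0.86, 0.83 and 0.87 on Days 3, 7 and 14. *Col1a1* with *Col3a1* had 0.71, 0.62 and 0.76, and *Col5a1* with *Col5a2* had 0.18, 0.22 and 0.15. Between the sets, *Col1a1* with *Col5a1* had 0.32, 0.22 and 0.29, and *Col3a1* with *Col5a2* had 0.39, 0.13 and 0.27. *Col5a1* and *Col5a2* thus did not stand apart as a set in single cells, at counts that are sparse for the type V chains.

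Among 3921 genes with at least 50 CPM in 1 combination, those most like *Col1a1* were *Aebp1*, *Adamts2* and *Gpnmb*, with r of 0.96, 0.96 and 0.95. Those most like *Col1a2* were *C2*, *Gas6* and *Tcea3* (0.96, 0.96 and 0.94), and those most like *Col3a1* were *Tcn2*, *Mmp2* and *Ahnak2* (0.98, 0.97 and 0.97). *Rab31* was among the 3 genes most like both *Col5a1* (with *Romo1* and *Postn*) and *Col5a2* (with *Sh3pxd2a* and *Fibin*), at 0.93 and 0.88. *Col5a3* was most like *Arl4c*, *Itgb1* and *Runx2*, at 0.98, 0.97 and 0.96, and *Pofut2* and *Sorcs2* were among the genes most like *Col11a1*, at 0.93 and 0.92. With 12 units and so many genes, high values are found for many pairs, and the names are a description of these libraries.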

How the data were processed

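Whole-tissue wound cells were run as 1 droplet library per day (3′ Chromium chemistry). The deposited files hold raw UMI counts, which the authors made with Cell Ranger 6.0.0 on mm10 according to the submitters' processing notes. Gene symbols were matched by Ensembl ID from a reference list that covered 32158 of the 32285 genes.

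Cells needed 200 genes and 500 UMIs, with mitochondrial UMIs of 10% or less. Doublets, scored against simulated ones, were removed up to 0.5 of the expected rate (0.8% per 1000 barcodes), which took out 92, 1978 and 962 cells, so some remain. Leiden clustering (leidenalg 0.10.2, resolution 1, 30 components of 2000 variable genes) gave 31 clusters and used no collagen, listed, mitochondrial or ribosomal gene, 192 in all. A class needed 3 markers. A cluster whose 10 leading genes favoured another class, or in which a second class scored 0.75 of the best, stayed unnamed.

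UMIs were summed per class and library (Python 3.11.15, scipy 1.17.1). The intervals were tested on simulated data with counting error alone, the error they assume. That test says nothing of variation between libraries. The genes named are the members, up to 4 genes past 2-fold per list, the 3 genes most like each member, and some list genes chosen after their values were seen. Some genes that these rules name are not reported here. Members and lists were chosen with earlier results of these data known.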

Additional observations from a re-analysis of the deposited data

How the results depend on the processing

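No paired analysis was possible because each day had 1 library, and no replicate could be left out. Of 256 values recomputed under other settings, 107 stayed in range and 149 moved beyond it. The range was the counting interval or, for 12 counts of genes, 1.5 times the count either way. A change of sign was looked for only in the log2 ratios between days, 140 of single chains and 20 of summed chains, and 0 reversed. The causes were not tested beyond what each setting changes. Counting cluster 10 as fibroblast-like, a choice made after seeing the data, moved the *Col1a1* to *Col3a1* ratio to 1.23 on Day 7 and 1.52 on Day 14, the type V to type I ratio to 0.0361 on Day 14, the share of chain UMIs in the class to 97.0% and 96.7% on Days 7 and 14, and the Day 14 to Day 7 log2 ratio of the summed chains to 0.25 and of *Col11a1* to -0.16. Classes set from each cell's own markers gave 1.23 and 1.53, type V to type I ratios of 0.0706 and 0.0361 on Days 7 and 14, shares of 99.2%, 97.9% and 98.5% on Days 3, 7 and 14, and log2 ratios of 0.75 (Day 7 to Day 3) and 0.25 (Day 14 to Day 7). With the low-UMI cluster 14 added, the *Col1a1* to *Col3a1* ratio was 1.23 and 1.29 on Days 7 and 14, the type V to type I ratio 0.0440 on Day 14, the shares 99.2%, 97.0% and 71.8%, and the later log2 ratio 0.12.

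At a mitochondrial limit of 5% the *Col1a1* to *Col3a1* ratio was 1.22 and 1.27 on Days 7 and 14, the type V to type I ratio 0.0708 on Day 3, the shares 99.3%, 96.8% and 71.5%, and the log2 ratios 0.75 and 0.11. At 20% the shares were 98.6%, 96.1% and 70.2%. With doublets kept, the *Col1a1* to *Col3a1* ratio was 1.23 and 1.29 and the type V to type I ratio 0.0706 and 0.0438 on Days 7 and 14, the shares 95.6% and 69.7%, and the log2 ratios 0.72 and 0.13. With doublets removed at the full rate, the *Col1a1* to *Col3a1* ratio was 1.28, 1.22 and 1.26, the type V to type I ratio 0.0447 on Day 14, the shares 98.9% and 69.1% on Days 3 and 14, and the log2 ratios 0.76 and 0.10. The mean CPM per cell gave log2 ratios of 0.75 and 0.065, leaving out the 50 most abundant genes 0.95 and 0.087, and median scaling 1.03 and 0.16.

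Without a CPM limit, 942 genes were at least 2-fold higher and 1417 lower from Day 3 to Day 7, and 663 higher and 1236 lower from Day 7 to Day 14. Median scaling gave 283 higher and 196 lower from Day 3 to Day 7, against 180 and 356. Thinning to 1000 UMIs gave *Col5a3* in 48.4%, 50.2% and 31.4% of fibroblast-like cells and *Col11a1* in 0%, 1.53% and 1.24%. Days, libraries and mice cannot be told apart with 1 library per day.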
